A study of Homo sapiens with 6 samples.

Results

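The genes described here are the matrix metalloproteinase genes MMP1, MMP9, MMP10 and MMP13, which were taken by their symbols from a deposited table of 1305 genes. All 4 symbols were found, each once. The table lists only genes that the submitters had selected as changed between the treatments (largest adjusted p 0.0428, smallest absolute log2 fold change 1.00 in the authors' deposited table), so the presence of these 4 genes in it is itself a result of the same comparison. Of 23 human matrix metalloproteinase symbols that were looked up, the other 19 have no row in the table and were not analysed here.

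RNA was sequenced from NCI-H292, a long-established line of human lung cancer cells, after 48 hours in DMSO, the solvent, diluted 1 in 1000 (3 libraries) or in 50 nM mitoxantrone (3 libraries). Mitoxantrone is an anticancer drug that poisons type II topoisomerase, so that DNA breaks accumulate, and the series title places the experiment in a study of senescence in lung cancer. Nothing in the labels states that the libraries of a group came from separate cultures, so the spread between them may be technical. Library totals solved from the deposited values were 14762586 to 17817842 reads, and a level is given below either as normalized reads (reads divided by a library's size factor) or as FPKM (reads scaled to gene length and to the library's total). The labelled cell type could not be checked against its markers in a table of selected genes: of 6 epithelial markers KRT8 and KRT18 were listed, and both rose (KRT8 alone was called with TMM size factors over the listed genes, and neither with DESeq2 size factors). In bulk RNA, fewer cells of a type and less RNA per cell cannot be told apart.

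Matrix metalloproteinases are zinc-dependent proteases that cut the proteins of the extracellular matrix. Most are secreted as inactive proenzymes, in which a cysteine of the propeptide blocks the catalytic zinc until the propeptide is removed, and they are held in check by the TIMP inhibitors. MMP1 and MMP13 are collagenases, which cleave the triple helix of fibrillar collagens. MMP10 is a stromelysin, which cuts proteoglycans, laminin and fibronectin and can activate procollagenases. MMP9 is a gelatinase, which degrades denatured collagen and the type IV collagen of basement membranes. In airway and tumour epithelium their transcripts are known to respond to interleukin 1 and to growth factor signals, often through AP-1, a dimer of FOS and JUN proteins.

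What the 4 genes share is a catalytic site, in which 3 histidines hold the zinc ion. The coding bases of that site are shown because all 4 genes hold it, though the site alone does not define the family. They were read from GENCODE release 29 transcripts (GRCh38), 5′ to 3′, with the 3 histidine codons in capitals:
MMP1: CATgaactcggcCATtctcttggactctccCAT
MMP10: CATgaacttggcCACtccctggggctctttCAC
MMP13: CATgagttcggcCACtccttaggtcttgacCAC
MMP9: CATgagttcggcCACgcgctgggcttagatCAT
The site spans codons 218 to 228 of 469 in MMP1, 217 to 227 of 476 in MMP10, 222 to 232 of 471 in MMP13 and 401 to 411 of 707 in MMP9. Of its 33 bases, MMP1 and MMP10 had 25 in common and MMP1 and MMP9 had 21. Over the whole coding sequence MMP1 and MMP10 were 63.0% identical in a global alignment, MMP10 and MMP13 60.1%, MMP1 and MMP13 59.4%, and MMP9 between 40.9% and 41.6% identical to the other 3.

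Resemblance matters for how reads are assigned to a gene. No run of 50 bases of the MMP1, MMP9 or MMP13 transcript was found in a GENCODE transcript of another gene. In MMP10, 59 of 1709 such runs (3.45%) also occur in MMP3, the other stromelysin, so a small part of the MMP10 reads could not be assigned from sequence alone with single short reads.

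In the deposited table MMP10 (ENSG00000166670), MMP1 (ENSG00000196611) and MMP13 (ENSG00000137745) lie in this order on the minus strand of chromosome 11, at 102641234 to 102651359, 102660651 to 102668891 and 102813724 to 102826463. The table names no genome build, and these positions differ from those of the same genes in GRCh38. MMP10 and MMP1 are separated by 9.3 kb and MMP1 and MMP13 by 144.8 kb, within a span of 185.2 kb. MMP9 (ENSG00000100985) lies on the plus strand of chromosome 20 at 44637547 to 44645200. The table gives whole genes and no exons. Within 1 Mb of the chromosome 11 group, BIRC3, an inhibitor of apoptosis, was the 1 other listed gene.

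After mitoxantrone MMP1 and MMP10 rose and MMP13 fell, while MMP9 was higher in each mitoxantrone library without passing the test. With edgeR (quasi-likelihood F-test, Benjamini-Hochberg adjusted for 18305 tests), 2 of the 4 genes were called higher and 1 lower at an adjusted p of 0.05. Of all genes in the table, 56.7% were called higher, 35.3% lower and 92% in either direction. The 3 calls among 4 genes are therefore near the background of a table of selected genes. Higher genes were 61.6% of all calls, but 43.7% and 30.0% with size factors computed over the listed genes by TMM and by DESeq2. By the authors' deposited table, 60.8% of genes were higher and 39.2% lower. Normalized reads of the 2 treatments did not overlap for any of the 4 genes, as for 98.6% of all listed genes.

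**Figure D1:**
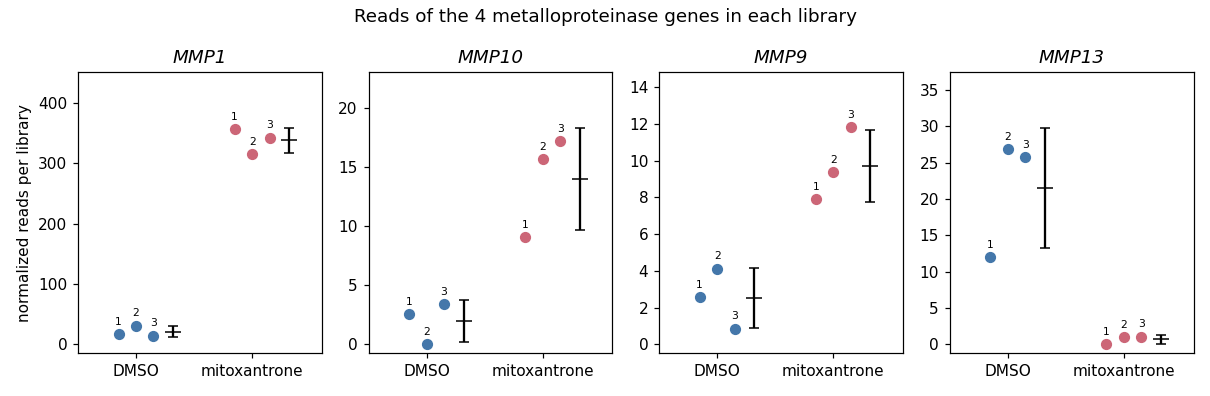
Normalized reads (vertical axes, a separate linear scale for each gene) of MMP1, MMP10, MMP9 and MMP13 in 3 DMSO and 3 mitoxantrone libraries; points are libraries with their replicate number, and the bar beside them is the mean ± SD. MMP1 moves from under 31 to over 315 normalized reads, MMP13 goes from 26.8 or less to 1.07 or less, and no gene has overlapping groups.

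MMP1, the interstitial collagenase, had 20, 30 and 17 reads in DMSO replicates 1, 2 and 3, which are 17.2, 30.9 and 14.6 normalized reads. The mitoxantrone libraries had 315, 303 and 319 reads, or 356.2, 315.7 and 342.4 normalized reads. The lowest mitoxantrone library held 10.2 times the normalized reads of the highest DMSO library, and the mitoxantrone libraries lay close together. Mean normalized reads were 20.9 ± 8.78 and 338 ± 20.6 (SD, n = 3 each). This is a 16.4-fold rise, or 4.04 ± 0.23 (standard error) on the log2 scale, with an edgeR adjusted p of 1.9e-08. It ranked 37 among the listed genes from the largest rise down, and 64.9% of listed genes had a lower mean. Leaving out any 1 library gave log2 fold changes from 3.83 to 4.40.

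MMP10, stromelysin 2, is the direct neighbour of MMP1 and was read far less often. It had 3, 0 and 4 reads in the DMSO libraries and 8, 15 and 16 in the mitoxantrone libraries. These are 2.58, 0 and 3.43 normalized reads against 9.05, 15.6 and 17.2. The 0 in DMSO replicate 2 allows up to 3 reads. The mean rose from 2.00 ± 1.78 (SD, n = 3) to 13.9 ± 4.32 (SD, n = 3), or by 2.66 ± 0.64 (standard error) on the log2 scale, with an edgeR adjusted p of 0.014. The 39 reads with mitoxantrone against 7 with DMSO are 6.63 times as many after scaling, with an exact 95% interval of 2.93 to 17.6 that covers counting error only. The call rests on few reads: it ended without DMSO replicate 1 (adjusted p = 0.059 in edgeR), without mitoxantrone replicate 2 (0.059) and without mitoxantrone replicate 3 (0.072). It also ended with size factors computed over the listed genes, at edgeR adjusted p = 0.092 (TMM) and 0.42 (DESeq2).

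MMP13, collagenase 3, went the other way. It had 14, 26 and 30 reads in the DMSO libraries and 0, 1 and 1 in the mitoxantrone libraries, which are 12.0, 26.8 and 25.7 against 0, 1.04 and 1.07 normalized reads. DMSO replicate 1 was the lowest of its group and still held 11.2 times the normalized reads of the highest mitoxantrone library. The 70 reads against 2 make it 29.4-fold lower after scaling, with an exact 95% interval of 7.85 to 248 for counting error only. The fitted change was -4.67 ± 0.71 (standard error) on the log2 scale, with an edgeR adjusted p of 2.3e-04. It was the fifth largest fall in the table, and lay between -5.02 and -4.19 when any 1 library was left out. The authors' deposited table gives a smaller fall, -2.27 with a standard error of 0.39, whereas a DESeq2 Wald test run here with the authors' size factors gave -4.90. For MMP10 the authors' deposited table likewise gives a smaller value, 1.48 (adjusted p 0.0013), and for MMP1 3.74. The cause of these differences was not tested.

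MMP9, gelatinase B, had 3, 4 and 1 reads in the DMSO libraries and 7, 9 and 11 in the mitoxantrone libraries. In normalized reads these are 2.58, 4.12 and 0.857 against 7.92, 9.38 and 11.8, so the lowest mitoxantrone library stood above the highest DMSO library. The means were 2.52 ± 1.63 (SD, n = 3) and 9.70 ± 1.97 (SD, n = 3). The difference of 1.94 ± 0.61 (standard error) on the log2 scale did not pass the test, with an edgeR adjusted p of 0.085; leaving out DMSO replicate 2 gave 0.047. The authors' deposited table gives 1.02 and an adjusted p of 0.0405. The 27 reads against 8 are 4.01 times as many after scaling, with an exact 95% interval of 1.77 to 10.2. MMP9 is also a product of leukocytes, but the labels name only a cultured line of lung cancer cells and no leukocytes. Of 6 leukocyte markers CD14 and ITGAM were listed, and they were called in opposite directions. ITGAM, an integrin subunit of myeloid cells, went the way of MMP9, from 3.49 ± 2.17 to 21.4 ± 10.1 normalized reads (SD, n = 3; edgeR adjusted p = 0.0056). Its call ended without mitoxantrone replicate 2 (edgeR adjusted p = 0.061) and with DESeq2 size factors over the listed genes (0.27). CD14, a receptor of monocytes, fell from 57.3 ± 13.7 to 25.6 ± 1.78 normalized reads (SD, n = 3; edgeR adjusted p = 0.011), and its call ended without DMSO replicate 3 (0.083) or mitoxantrone replicate 3 (0.062). The sum of the pair, 48.1 to 74.5 normalized reads with DMSO and 38.4 to 59.4 with mitoxantrone, is mostly CD14 in DMSO. How CD14 and ITGAM relate to MMP9 in these cells was not tested.

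FPKM allow the levels of the 4 genes to be compared with each other. With DMSO MMP1 stood at 0.58, 0.96 and 0.48 FPKM and MMP13 at 0.28, 0.58 and 0.59, ranges that overlap, and in DMSO replicate 3 MMP13 was the higher of the pair. MMP10 (0.0767 ± 0.0681 FPKM, SD, n = 3) and MMP9 (0.0667 ± 0.0451 FPKM, SD, n = 3) were lower and did not differ from each other beyond their spread. With mitoxantrone the order was MMP1 (10.5 ± 0.611 FPKM, SD, n = 3), MMP10 (0.487 ± 0.157), MMP9 (0.257 ± 0.0603) and MMP13 (0.0133 ± 0.0115). MMP10 and MMP9 still overlapped in range, from 0.31 to 0.61 and from 0.2 to 0.32 FPKM.

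The make-up of the set differed between the treatments. The summed FPKM of the 4 genes was 1.03, 1.65 and 1.22 with DMSO and 11.3, 10.6 and 11.9 with mitoxantrone. MMP1 made up 56.3%, 58.2% and 39.3% of that sum with DMSO and 95.5%, 92.4% and 92.0% with mitoxantrone. MMP13 made up 27.2%, 35.2% and 48.4% with DMSO and 0%, 0.188% and 0.168% with mitoxantrone. The mitoxantrone shares of MMP13 rest on 0, 1 and 1 reads and are approximate. For both shares the groups did not overlap, and the two-sided exact permutation test gave p = 0.10, the smallest value that 3 against 3 libraries allow. Both genes had been selected as changed between these same libraries, MMP1 as higher and MMP13 as lower. Their shares are also parts of the same sum. The tests of these shares therefore add no evidence of a difference. The shares of MMP10 (6.79% ± 5.90 and 4.32% ± 1.37, SD, n = 3) and MMP9 (5.03% ± 2.94 and 2.27% ± 0.471, SD, n = 3) overlapped between the treatments (exact permutation p = 0.50 and 0.40).

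**Figure D2:**
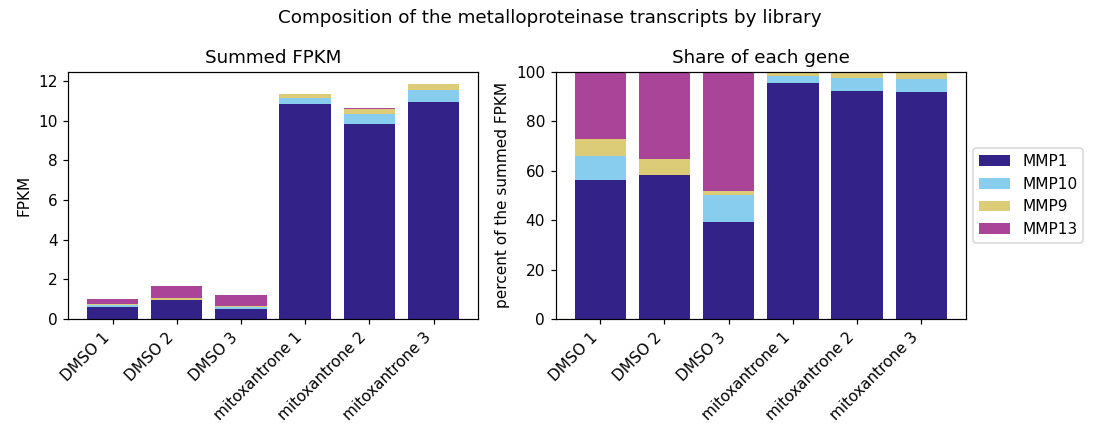
Stacked FPKM of MMP1, MMP10, MMP9 and MMP13 (left) and the percent each contributes to their sum (right) in the 6 libraries. The sum is 1.03 to 1.65 FPKM with DMSO and 10.6 to 11.9 with mitoxantrone, where MMP1 supplies at least 92.0% and MMP13 at most 0.188%. That share of MMP13 rests on 1 read.

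MMP1 and MMP10 lie side by side and rose together, but their ratio differed between libraries. The log2 ratio of MMP1 to MMP10, each as FPKM + 0.1 (a constant added because 1 library is at 0), was 1.77, 3.41 and 1.33 with DMSO and 4.74, 3.95 and 3.96 with mitoxantrone. All 3 mitoxantrone libraries were higher, a mean difference of 2.05 (exact permutation p = 0.10, the smallest possible). The constant exceeds the mean FPKM of MMP10 with DMSO (0.0767), which shrinks the rise of MMP10 and enlarges this difference. With limma on log2(FPKM + 0.1) MMP1 rose by 3.83 and MMP10 by 1.78. The edgeR fit, without that constant, gave 4.04 ± 0.23 and 2.66 ± 0.64 (standard error), which lie closer together. The ratio with DMSO rests on 7 MMP10 reads, so the size of the difference is uncertain. DMSO replicate 2, with 0 MMP10 reads, came closest to the mitoxantrone libraries. Leaving out 1 library gave differences from 1.63 (without DMSO replicate 3) to 2.67 (without DMSO replicate 2). Normalized reads + 1 in place of FPKM + 0.1 gave 1.50.

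Promoter sequence in the RefSeq table (GRCh38.p14) matched 1 of the 4 genes, MMP10. Its 250 bases before the transcription start, chr11:102780629-102780878 on the minus strand, are shown because MMP10 rose and AP-1 is a well-known regulator of this family. The motif search covered these bases and not those after the start. Capitals mark an AP-1 motif (TGANTCA) and a TATA motif (TATAAA):
MMP10: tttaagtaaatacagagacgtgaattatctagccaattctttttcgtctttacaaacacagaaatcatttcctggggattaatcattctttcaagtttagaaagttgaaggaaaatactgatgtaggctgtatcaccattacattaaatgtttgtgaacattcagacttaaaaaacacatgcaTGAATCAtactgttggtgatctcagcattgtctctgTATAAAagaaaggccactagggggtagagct
The AP-1 motif begins at position -67 from the start and the TATA motif at -31, and the 2 do not overlap. The AP-1 search allowed any base at the centre (N), and the match here, TGAATCA, has an A there. Searched on both strands, TGANTCA occurs in 6.57% and TATAAA in 10.7% of 35116 RefSeq promoters of the same length. The ETS motif AGGAAG, which 28.7% of the promoters hold, was not matched in these bases. A match is a description of letters and shows no binding.

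The genes that act on metalloproteinases, or that metalloproteinases act on, were mostly higher among those listed. Of 144 such genes in 7 lists, 42 were in the table. Of these, 36 were called higher, 5 lower and 1 was not called. Over all listed genes 56.7% were called higher and 35.3% lower, so rises are also the larger part of the whole table. The median log2 fold change was 1.70 against 1.26 over all listed genes. With size factors computed over the listed genes, 29 (TMM) and 20 (DESeq2) were called higher and 6 lower with either. The same factors called 398 (TMM) and 219 (DESeq2) of all 1305 listed genes higher, and 512 lower with either. The fitted direction of 0 of the 42 changed. The lists were drawn up with earlier results of these data known.

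All 9 listed of 18 cytokines and growth factors that are known to induce metalloproteinases rose (9 with the TMM and 8 with the DESeq2 factors). Over all listed genes 56.7% were called higher and 35.3% lower. Whether any of them acted on the metalloproteinase genes in these cells was not tested. AREG, whose product amphiregulin activates the EGF receptor, rose 16.3-fold and IL8 (CXCL8, a neutrophil chemokine) 15.6-fold. Interleukin 1 is a classical inducer of MMP1 and MMP13 in other cells; IL1A rose from 752 ± 123 to 4352 ± 323 and IL1B from 329 ± 50.5 to 1810 ± 137 normalized reads (SD, n = 3). Of 24 transcription factors of the AP-1, ETS and RUNX families 6 were listed. BATF2 and FOS, both of the AP-1 superfamily, were the largest rises, at 8.98 ± 2.96 against 25.3 ± 4.68 and 78.0 ± 17.5 against 216 ± 52.8 normalized reads (SD, n = 3). The call of BATF2 ended without DMSO replicate 1 (edgeR adjusted p = 0.12) or 3 (0.094) or mitoxantrone replicate 1 (0.10) or 2 (0.056). With the TMM and DESeq2 factors 2 and 0 of the 4 rises in this list were called. The ETS family members ELF3 and ETS2 fell, with log2 fold changes of -1.28 (standard error 0.17) and -1.09 (standard error 0.14), whereas ETV5 and EHF of the same family rose 2.22-fold and 2.53-fold.

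Plasmin, which can activate several proMMPs, is made by the plasminogen activators. All 6 listed of 10 genes of this system rose, both activators and their inhibitors (5 with the TMM and 4 with the DESeq2 factors). SERPINB2 (plasminogen activator inhibitor 2) rose 16.7-fold and PLAT (tissue plasminogen activator) 5.18-fold, and PLAU (urokinase) rose 4.50-fold. Of 7 metalloproteinase inhibitors only TFPI2, a Kunitz-type inhibitor of plasmin and some MMPs, was listed and rose (not called with the DESeq2 factors), at 784 ± 232 and 2268 ± 222 normalized reads (SD, n = 3). The 4 TIMP genes have no row in the table and were not analysed here.

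The related ADAM and ADAMTS proteases moved in both directions: of 28, 7 were listed, 5 rose and 2 fell. The whole table also moved in both directions, with 56.7% called higher and 35.3% lower. ADAMTS7 rose 4.51-fold and ADAM28 3.85-fold. ADAMTS15, an aggrecan-cleaving protease, fell from 137 ± 29.2 to 46.2 ± 4.84 and ADAMTS16 from 43.5 ± 8.29 to 18.0 ± 3.04 normalized reads (SD, n = 3). The call of ADAM28 ended without DMSO replicate 1 (edgeR adjusted p = 0.096) or mitoxantrone replicate 1 (0.059) or 3 (0.078), and that of ADAMTS16 without DMSO replicate 1 (0.083) or mitoxantrone replicate 2 (0.057). With the TMM and DESeq2 factors 3 and 2 of the 5 rises were called. ADAM8, a sheddase of cell surface proteins, was the most read of them, with 1736 ± 333 against 5781 ± 150 normalized reads (SD, n = 3).

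Of 39 matrix substrates 8 were listed, 7 of them higher, beside 56.7% called higher and 35.3% lower in the whole table. COL17A1, a collagen of hemidesmosomes, rose 5.19-fold and LAMA3, a chain of a basement membrane laminin, 4.11-fold. With the TMM and DESeq2 factors 6 and 4 of the 7 rises were called. COL1A1, a chain of the type I collagen that MMP1 and MMP13 cleave, was the 1 listed substrate that fell, from 344 ± 49.5 to 139 ± 19.5 normalized reads (SD, n = 3). Of 18 surface partners and activating proteases 5 were listed and 4 rose. LCN2, which encodes a lipocalin that binds proMMP9, rose 7.51-fold, and ITGA2, a collagen receptor subunit, 3.83-fold. With the TMM and DESeq2 factors 3 and 2 of these rises were called. KLK6, a serine protease, stood at 13.5 ± 3.11 and 3.94 ± 1.10 normalized reads (SD, n = 3), with an edgeR adjusted p of 0.051.

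**Figure D3:**
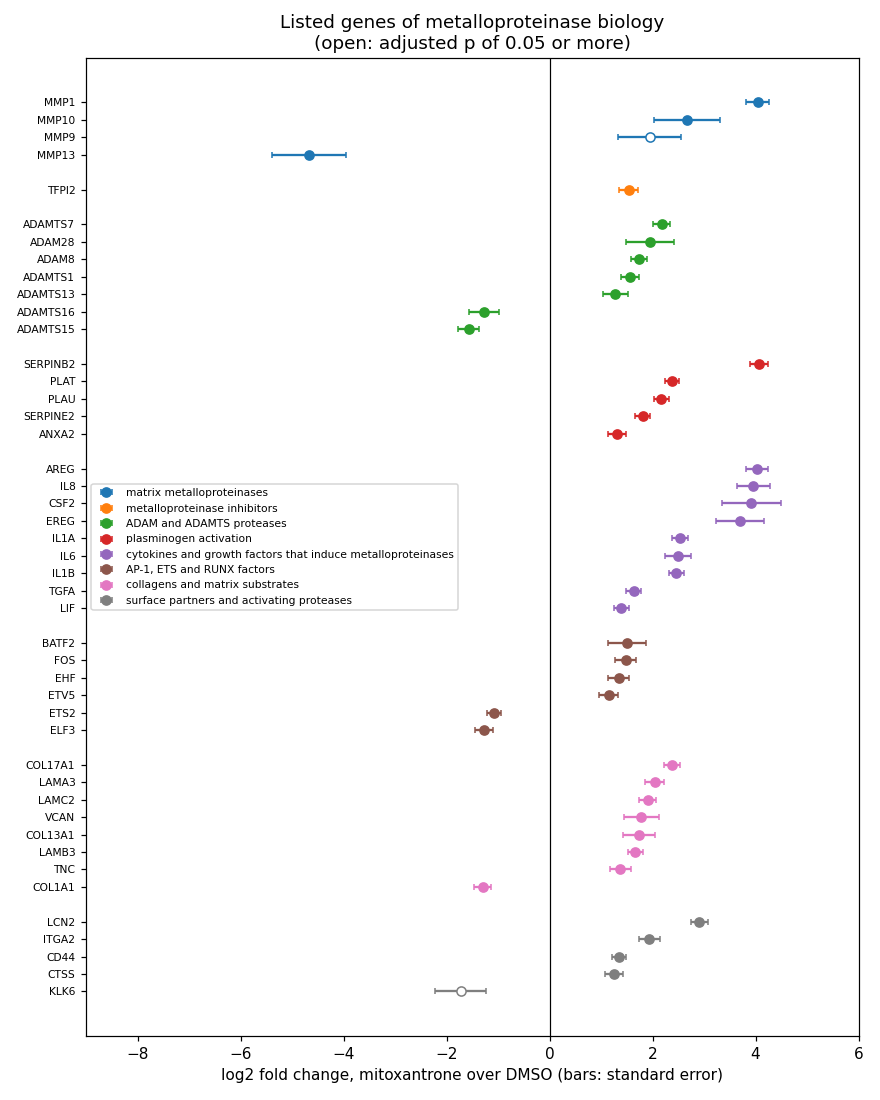
Log2 fold change (mitoxantrone over DMSO, horizontal axis) with its standard error for the 4 metalloproteinase genes and 41 of the 42 other listed genes, grouped and coloured by list; open points have an adjusted p of 0.05 or more. MMP13 lies farthest to the left at -4.67, and MMP1 at 4.04 lies among SERPINB2, AREG and IL8.

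The listed genes whose profile over the 6 libraries came nearest to each metalloproteinase were found by the root mean square difference of log2(normalized reads + 1), each gene centred on its own mean. Against MMP1, among 930 genes with a mean of at least 20 normalized reads, these were CXCL1 (0.12), AREGB (0.18) and IL8 (0.18). CXCL1, a neutrophil chemokine, stood at 18.2 ± 5.07 and 324.5 ± 11.3 normalized reads (SD, n = 3). Against MMP10 they were AP001053.11 (0.21), ASTN2 (0.33) and ABCA1 (0.36), and against MMP9 IL1RL1, which encodes the receptor of interleukin 33 (0.20), IL24 (0.20) and TCN2 (0.24). Against MMP13, among 597 genes with a mean under 50, they were CDKN1C, a cell cycle inhibitor gene (0.37), NOTUM (0.53) and HIST1H3C (0.58). The distances for MMP10, MMP9 and MMP13 include the counting error of few reads, and AREGB shares sequence with AREG. The added 1 also shrinks the changes of MMP10 and MMP9 more than those of genes with a mean of at least 20. The genes nearest to MMP10 had edgeR log2 fold changes of 2.06 to 2.12, against 2.66 for MMP10. Those nearest to MMP9 had 1.42 to 1.79, against 1.94 for MMP9.

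**Figure D4:**
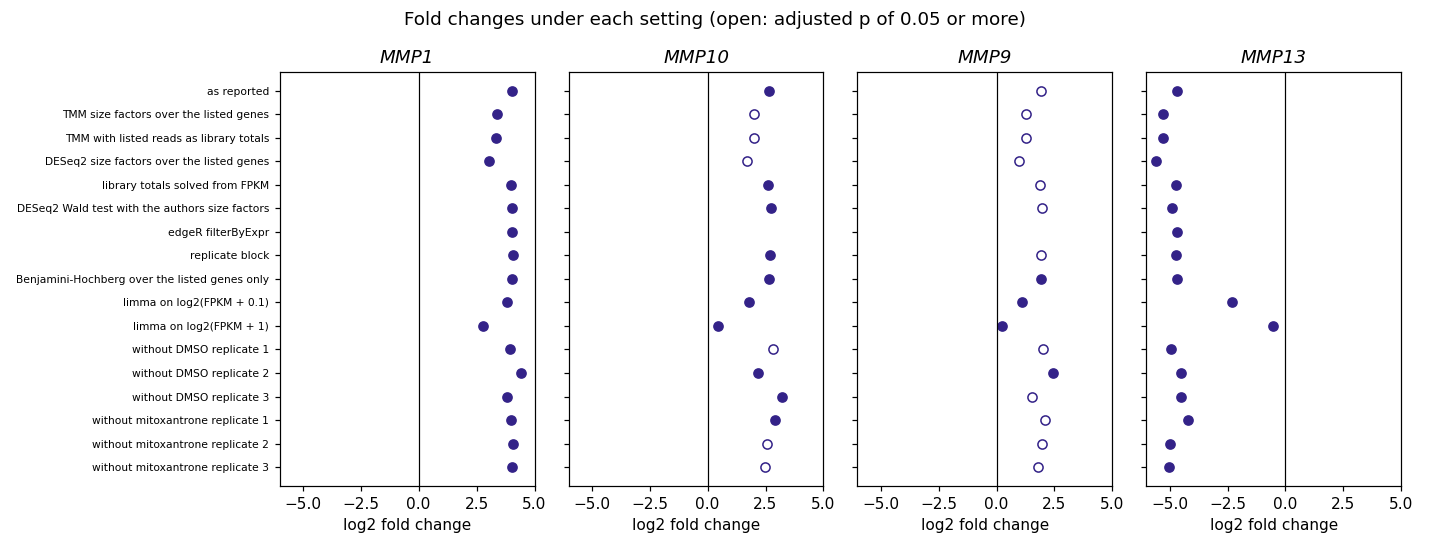
Log2 fold changes of MMP1, MMP10, MMP9 and MMP13 as reported (top line) and under each alternative setting (rows); filled points have an adjusted p under 0.05. Every point keeps the direction of its gene. MMP1 and MMP13 stay filled, MMP10 is open in 6 settings and MMP9 is filled in 4, and both have no point where the filter on low counts removed them. Among the settings with MMP9 filled, adjustment over the listed genes only calls every gene of the table.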

How the data were processed

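Raw read counts and FPKM of 6 NCI-H292 libraries came from 1 table deposited by the authors. Per the file headers it also holds their mean normalized count (a signal value), log2 fold change with its standard error, Wald score, p-value and adjusted p-value. Per the submitters' processing notes, HISAT2 2.0.1, HTSeq 0.6.1, DESeq2, Cufflinks 2.2.1 and cutadapt 1.9.1 were used, in roles not stated. Build and strandedness: not given in the sources used here.

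Size factors were solved from counts and mean normalized counts (largest relative error 5.0e-10), library totals from FPKM, counts and lengths, and the number of genes the authors tested from their 16 smallest p-values, a number set after seeing them (18293 to 18318, taken as 18305). Counts were tested with edgeR 4.0.16 (limma 3.58.1, R 4.3.3), quasi-likelihood, treatment alone, no filter, adjusted p 0.05; ranks come from the 1305 listed genes only, which enlarges adjusted p-values. Dispersions from selected genes tend to be low. Shares used exact permutation tests (scipy 1.17.1). The test was also run on data simulated from the means and dispersions of the listed genes, with the outcome not reported here. Alternatives were other size factors (TMM given the solved library totals; TMM given the listed reads was run first, and was kept as an alternative added after seeing the data), DESeq2 1.42.0, a count filter, a replicate block, limma on FPKM and leaving out each library. Lists were searched by symbol, and named were the 4 genes, the 2 largest called rises and falls of each list with at least 3 listed genes, and the 3 nearest profiles; other list genes were named after their values were seen. The planned protein features were replaced by coding bases, and the planned motif window was shortened to the bases before the start; the check of shared runs, the annotation groups and the constant in the MMP1 to MMP10 ratio were added after the data were seen. Members and lists were chosen with earlier results of these data known. The values of 2 genes are counted in their groups and not reported here by name.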

Additional observations from a re-analysis of the deposited data

How the results depend on the processing

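MMP1 and MMP13 kept their direction and call in all 16 alternatives, and MMP10 and MMP9 their direction in the 15 that gave a value; the filter on low counts removed both. The size of the change depended on the scale: with limma on log2(FPKM + 1) the log2 fold changes were 2.79 (MMP1), 0.46 (MMP10), 0.24 (MMP9, adjusted p = 0.028) and -0.54 (MMP13), since the added constant exceeds the FPKM of the last 3. For MMP9, limma on log2(FPKM + 0.1) gave 1.12 (adjusted p = 0.028). Adjustment over the listed genes only left 1.94 (edgeR adjusted p = 0.0061). That setting called every gene of the table (793 higher and 512 lower), so its call of MMP9 adds no evidence. Leaving out 1 library gave 1.53 to 2.42 for MMP9 and 2.18 to 3.21 for MMP10. Size factors over the listed genes, a set selected as changed, moved the median log2 fold change of all genes by -0.67 (TMM) and -0.99 (DESeq2). With them MMP10 was at 2.01 (edgeR adjusted p = 0.092) and 1.70 (0.42), genes called higher numbered 398 and 219 in place of 740 (43.7% and 30.0% of calls in place of 61.6%), and with the DESeq2 factors 20 in place of 36 of the other genes of metalloproteinase biology were called higher. TMM given the listed reads in place of the library totals, an alternative added after seeing the data, gave 1.99 for MMP10 (edgeR adjusted p = 0.14) and 366 genes higher. Treating the replicate number as a block gave 4.05, 2.68, 1.94 and -4.71 for MMP1, MMP10, MMP9 and MMP13, with 736 genes higher and 463 lower, and changed no call of the 4. Deviations of same-numbered libraries from their group means had correlations of -0.335, -0.196 and 0.171 for numbers 1, 2 and 3. Those of differently numbered libraries ran from -0.386 to 0.494. With 3 libraries per group this check cannot decide whether the numbers pair the libraries. Fewer than 50 reads per group limit MMP9 and MMP10.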

Other observations

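Other protease genes and protease inhibitors of the table, grouped by the annotation terms in the table after their values had been seen, were also mostly called higher with the authors' size factors. Some of these genes, PLAT and PLAU among them, are also counted in the lists above. Of 9 listed genes annotated with serine-type endopeptidase activity, 7 were called higher and 1 lower, against 56.7% and 35.3% of all listed genes. With size factors computed over the listed genes 4 (TMM) and 3 (DESeq2) were called higher and 2 lower. Those factors called 398 (TMM) and 219 (DESeq2) of all 1305 listed genes higher, and 512 lower with either. TMPRSS11E and TMPRSS11D, membrane-bound airway serine proteases, stood at 5.43 ± 0.487 and 11.8 ± 3.05 normalized reads with DMSO and at 32.7 ± 5.11 and 34.3 ± 4.55 with mitoxantrone (SD, n = 3). The call of TMPRSS11D ended with size factors computed over the listed genes (edgeR adjusted p = 0.34 with TMM and 1 with DESeq2).

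Of 22 listed genes annotated as endopeptidase inhibitors, 17 were called higher and 5 lower, against 56.7% and 35.3% of all listed genes. With size factors computed over the listed genes 10 (TMM) and 7 (DESeq2) were called higher and 5 lower. Among all 1305 listed genes these factors called 398 and 219 higher and 512 lower. SERPINA1, the inhibitor of neutrophil elastase, rose 6.34-fold, PI3 (elafin, another elastase inhibitor) from 6.87 ± 3.43 to 46.5 ± 2.33 and A2ML1, a broad protease inhibitor of epithelia, from 2.06 ± 1.94 to 29.4 ± 7.95 normalized reads (SD, n = 3). SERPINB4, SERPINB13 and SERPINB3 fell 5.32-fold, 3.78-fold and 2.47-fold; SERPINB3 and SERPINB4 are near-identical, so the division of their reads is uncertain. Of 11 listed genes annotated with metalloendopeptidase activity, 7 were called higher and 3 lower, near the 56.7% and 35.3% of all listed genes. With size factors over the listed genes 4 (TMM) and 3 (DESeq2) were called higher and 3 lower, beside 398 and 219 higher and 512 lower of all 1305. These 11 are the 4 metalloproteinases and the 7 listed ADAM and ADAMTS genes already counted above, so they are not a further group.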
